A study of Homo sapiens with 26 samples.

Results

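The effect of doxycycline without any hairpin was examined in KELLY, a human neuroblastoma cell line in which MYCN is amplified, carrying the empty lentiviral vector (labelled F1HUTG, referred to as EV). The members are 6 of the 26 libraries of the series, 3 replicates with doxycycline and 3 with the solvent DMSO, all harvested after 72 h. They were defined by these labels, and this part of the series was chosen with earlier results of these data known. The titles of these 6 libraries read F1HUTG and also carry the word shRNA. The paper's methods name the empty vector FH1UTG, and the absence of a hairpin here rests on that name. The vector also encodes green fluorescent protein and is shared by all 6 libraries, so that nothing here separates the vector from the cells. Another 2 KELLY lines, labelled sh4 and shAMB, carried the vector with a hairpin RNA directed at RUNX1T1, a transcriptional co-repressor (3 doxycycline and 3 DMSO libraries each). Xenografts of KELLY cells in mice were labelled WT with control food or RUNX1T1 KO with doxycycline food (4 libraries each). The dose in the RNA sequencing cultures was not given in the labels. The study's methods describe sorting of strongly GFP-positive cells for another neuroblastoma line given these constructs, but do not state for KELLY whether a line is 1 clone or a pool, nor is it stated whether replicates came from separate cultures, so that p-values measure the spread between these libraries, which may be technical. The headings Neg and Pos of the count columns were taken in their plain meaning to be DMSO and doxycycline, and every direction below rests on that reading.

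Doxycycline is a tetracycline antibiotic that is widely used to switch on transgenes. Tetracyclines block bacterial ribosomes, and mitochondria, which descend from bacteria, translate the few proteins encoded in their own genome with ribosomes that the drug can also inhibit. Loss of mitochondrial translation is known to unbalance the respiratory complexes, whose subunits come from both genomes, and to activate the integrated stress response, in which the transcription factor ATF4 raises amino acid, one-carbon and transfer RNA synthetase genes. An EV line treated with the drug is therefore the usual control for a hairpin experiment.

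The cells expressed the sympathetic neuroblast programme in every library. TPM values (the deposited abundance per transcript length) of MYCN were 2380 to 2522 and of HAND2 299 to 319. The 12 adrenergic markers summed to 5531 to 5904 TPM with DMSO and 5829 to 6047 with doxycycline, and the 10 mesenchymal markers to 126 to 137 and 131 to 135. TWIST1 was the most abundant of the latter, and COL1A2 was listed at 0. Epithelial, leukocyte and endothelial markers summed to at most 0.76, 1.21 and 0.29 TPM, with KRT5, KRT14, CDH1 and CD3E at 0, and the Schwann cell marker SOX10 reached at most 0.02 TPM. Total expected counts were 35115915 to 44579339 per library.

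Doxycycline alone moved few genes. Of 14905 genes tested with edgeR, 14 changed at an adjusted p under 0.05 (0.0939% of genes), 2 higher (0.0134%) and 12 lower (0.0805%), whereas 879 had an unadjusted p under 0.05 (3.23% of genes higher and 2.66% lower). In this text rose, fell and changed refer to the adjusted threshold only. No changed gene moved by 2-fold, and log2 fold changes ran from −0.93 for CDH6 to 0.89 for TG. Over all genes the median of the log2 fold change was 0.0099. Precision was high enough to bound most genes: the 95% confidence interval of the fold change lay within 2-fold either way for 87.2% of all genes tested, and for 96.4% of the 12551 genes whose EV mean reached 1 CPM (counts per 1000000 of a library's total, scaled by its TMM factor). It lay within 1.5-fold for 82.3% of the latter. Of the 2354 genes with lower means 37.8% were bounded within 2-fold, so that a 2-fold effect could not be bounded for most weakly expressed genes at this depth. With the GC content and length trends of the libraries (given below) taken out, 58 genes changed (19 higher and 39 lower), among them all 14. The count was 7 without the first DMSO replicate and 8 without any one of the doxycycline replicates.

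**Figure D1:**
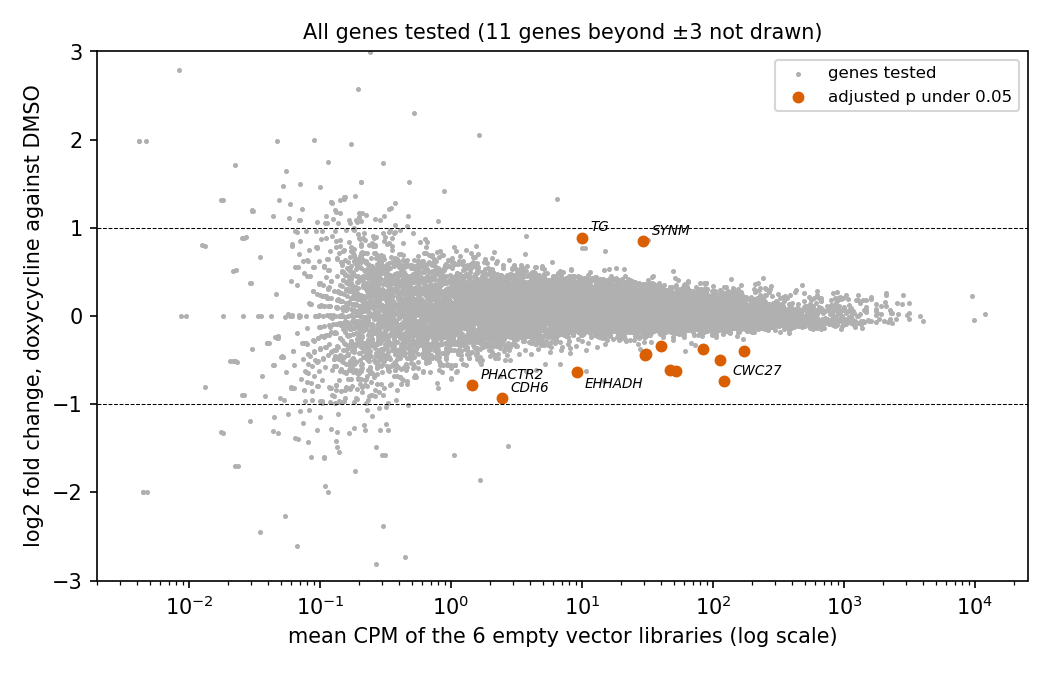
Log2 fold change of doxycycline against DMSO in EV cells (vertical axis) against the mean CPM of the 6 libraries (horizontal axis, log scale), 1 point per gene tested, with the 14 changed genes in orange and dashed lines at 2-fold. The changed genes lie between the dashed lines, 12 below zero and 2 above, while the wide scatter at the left belongs to genes with few counts and 11 genes beyond the axis are not drawn.

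SYNM rose, and CDH6, PHACTR2 and SYNPO2 fell. The changed genes are taken here by the role of their products, an order made after the calls and not a tested grouping. SYNM (chr15:99098217-99135593, plus strand) encodes synemin, an intermediate filament protein. It was at 21.1, 20.2 and 22 CPM with DMSO and at 38.5, 39.9 and 35.3 CPM with doxycycline. The groups were far apart, and the log2 fold change was 0.85 (SE 0.0642, edgeR adjusted p 1.2e-05), an increase of 79.7%. Of its exon sequence 27.8% is also covered by exons of the opposite strand, and whether counting used the strand is not given in the sources used here. CDH6 (chr5:31193686-31329146, plus strand), a cadherin of the neural crest, was at 3.92, 2.91 and 2.88 CPM with DMSO and at 1.55, 1.86 and 1.68 with doxycycline. Its log2 fold change was −0.93 (SE 0.143, edgeR adjusted p 0.0139). PHACTR2 (chr6:143536845-143831185, plus strand), a regulator of protein phosphatase and actin, was at 2.12, 1.73 and 1.67 CPM against 1.20, 1.11 and 0.898, a difference of −0.78 on the log2 scale (SE 0.131, edgeR adjusted p 0.023). SYNPO2 (chr4:118850688-119061247, plus strand), an actin-binding protein, was at 36.9, 32.0 and 35.9 CPM against 26.6, 24.8 and 26.1, a difference of −0.44 on the log2 scale (SE 0.0589, edgeR adjusted p 0.0039). In all 4 genes the groups were separate. SYNM and SYNPO2 passed whichever EV library was left out. CDH6 did not pass without the first DMSO replicate (log2 fold change −0.77, adjusted p 0.0884) or without doxycycline replicate 1 (−0.87, 0.127) or 3 (−0.93, 0.0964). PHACTR2 passed in 1 of the 6 such fits, that without the third DMSO replicate, and its log2 fold change was −0.66 without the first DMSO replicate and −0.88 without the first doxycycline replicate.

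SLITRK5, SLC18B1, DNAJC6 and EDNRA fell as well. SLITRK5 (chr13:87671371-87696272, plus strand), a leucine-rich repeat membrane protein of neurons, was at 56.2, 58.1 and 57.4 CPM with DMSO and at 37.3, 37.1 and 38.2 with doxycycline. Its replicates differed by a few percent and its groups by 34.4% (log2 fold change −0.61, SE 0.049, edgeR adjusted p 1.3e-05). SLC18B1 (chr6:132769370-132813339, minus strand), a vesicular polyamine transporter, was at 67.8, 63.5 and 60 CPM against 41.1, 40.6 and 42.4 (log2 fold change −0.62, SE 0.063, edgeR adjusted p 1.6e-04). DNAJC6 (chr1:65248219-65415871, plus strand) encodes auxilin, the neuronal co-chaperone that strips clathrin from vesicles, and was at 139, 131 and 130 CPM against 95.1, 92.4 and 96.5 (log2 fold change −0.50, SE 0.0517, edgeR adjusted p 2.0e-04). EDNRA (chr4:147480917-147544954, plus strand), the endothelin receptor type A, was at 38.3, 34.5 and 34.1 CPM against 26.1, 26.6 and 26.4 (log2 fold change −0.43, SE 0.068, edgeR adjusted p 0.0155). The doxycycline libraries of EDNRA were nearly equal, and the first DMSO library was the highest. SLITRK5, SLC18B1 and DNAJC6 passed whichever EV library was left out, whereas EDNRA passed only without DMSO replicate 2 or 3 and had a log2 fold change of −0.38 without the first (adjusted p 0.121), and of −0.43, −0.44 and −0.43 without each doxycycline replicate in turn (0.125, 0.0829 and 0.0974).

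**Figure D2:**
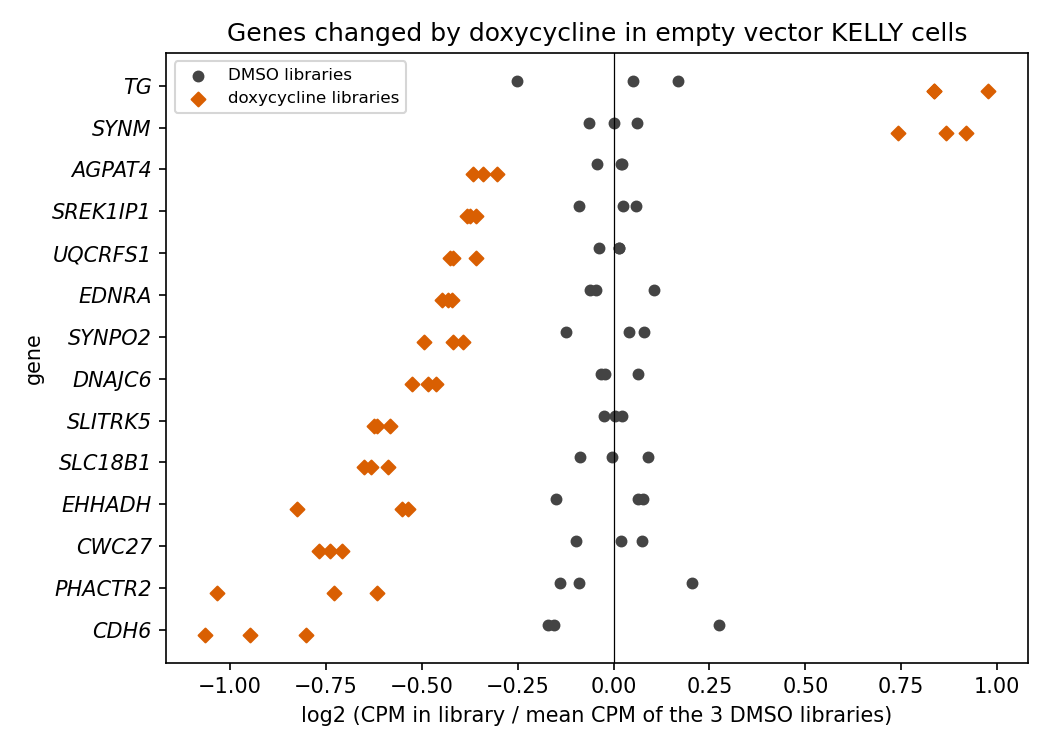
Each of the 14 changed genes (vertical axis) in each EV library, as log2 of its CPM over the mean of the 3 DMSO libraries (horizontal axis), with circles for DMSO and diamonds for doxycycline. For every gene the 2 groups are separate, with TG and SYNM to the right of zero and the other 12 to the left.

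A respiratory subunit and 2 lipid enzymes also fell. UQCRFS1 (chr19:29205320-29213151, minus strand) encodes the Rieske iron-sulfur protein, a catalytic subunit of respiratory complex III made in the cytosol, and was at 197, 197 and 190 CPM with DMSO and at 145, 152 and 146 with doxycycline. The fall was 24.2% (log2 fold change −0.40, SE 0.0658, edgeR adjusted p 0.023), and the groups did not overlap. The call was lost when any one of the 6 EV libraries was left out (adjusted p 0.0527 to 0.177), while the log2 fold change stayed between −0.44 and −0.36 over all alternatives, whose adjusted p ran from 1.1e-06 to 0.756. Pseudogene copies of UQCRFS1 are annotated, with which reads could be shared. EHHADH (chr3:185190624-185281990, minus strand), the bifunctional enzyme of peroxisomal beta-oxidation, was at 11.7, 11.6 and 10 CPM against 7.66, 7.57 and 6.26 (log2 fold change −0.63, SE 0.105, edgeR adjusted p 0.023). AGPAT4 (chr6:161129967-161274061, minus strand), which acylates lysophosphatidic acid, had the smallest fall, from 45.4, 43.4 and 45.3 to 36.2, 34.7 and 35.3 CPM (log2 fold change −0.34, SE 0.0498, edgeR adjusted p 0.0104). EHHADH passed in 1 of the 6 fits that left out a library, that without the third DMSO replicate, with log2 fold changes of −0.68 to −0.54 in the others. AGPAT4 did not pass without DMSO replicate 1 (−0.32, adjusted p 0.0775), doxycycline replicate 2 (−0.32, 0.0829) or doxycycline replicate 3 (−0.33, 0.078).

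The remaining pair of genes that fell, CWC27 and SREK1IP1, are neighbours that start head to head. CWC27, a cyclophilin of the spliceosome, was at 160, 154 and 142 CPM with DMSO and at 89.3, 91 and 93 with doxycycline. This was a fall of 40.1% (log2 fold change −0.74, SE 0.071, edgeR adjusted p 1.0e-04). SREK1IP1 encodes a protein that binds the splicing regulator SREK1, and was at 98.7, 96.4 and 88.9 CPM against 73, 72.7 and 73.9 (log2 fold change −0.37, SE 0.0617, edgeR adjusted p 0.023). CWC27 passed whichever EV library was left out. SREK1IP1 passed only without the third DMSO replicate, and its log2 fold change without the others was −0.38 to −0.34 (adjusted p 0.114 to 0.17). CWC27 spans chr5:64766368-65102412 on the plus strand and SREK1IP1 chr5:64718148-64768691 on the minus strand. These GENCODE spans overlap by 2.32 kb, since they include transcripts that start farther out than the RefSeq ones. Between the RefSeq starts lie 226 bases (chr5:64768692-64768917, GRCh38.p14), shown on the plus strand because the stretch precedes both RefSeq starts, although it lies inside the GENCODE span of CWC27. Capitals mark matches on either strand to the motifs searched.

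CWC27 and SREK1IP1: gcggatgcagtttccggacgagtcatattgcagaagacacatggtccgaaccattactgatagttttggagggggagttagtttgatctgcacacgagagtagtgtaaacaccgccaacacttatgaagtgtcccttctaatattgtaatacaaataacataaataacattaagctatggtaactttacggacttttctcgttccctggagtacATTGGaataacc
UQCRFS1: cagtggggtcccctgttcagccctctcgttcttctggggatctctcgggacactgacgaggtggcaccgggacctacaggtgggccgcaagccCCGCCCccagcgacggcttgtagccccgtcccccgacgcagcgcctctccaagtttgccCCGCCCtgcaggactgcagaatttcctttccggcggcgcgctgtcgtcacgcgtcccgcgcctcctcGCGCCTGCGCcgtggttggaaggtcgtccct
SYNM: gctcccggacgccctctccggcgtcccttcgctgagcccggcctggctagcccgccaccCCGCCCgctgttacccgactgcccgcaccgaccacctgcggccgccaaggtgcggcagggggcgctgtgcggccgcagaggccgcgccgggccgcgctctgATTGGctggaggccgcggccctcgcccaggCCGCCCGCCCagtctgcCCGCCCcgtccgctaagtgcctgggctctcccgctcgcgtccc

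The other 2 sequences are the 250 bases before the RefSeq start of UQCRFS1 (chr19:29213152-29213401, minus strand), the changed respiratory subunit, and of SYNM (chr15:99104830-99105079, plus strand, inside the GENCODE span given above), the gene with the smallest p. The stretch between CWC27 and SREK1IP1 was 41.2% G and C, against 69.2% for UQCRFS1 and 78.8% for SYNM. RefSeq promoter entries matched 11 of the 14 genes. On both strands, a CCAAT box (CCAAT) was present before 6 of the 11 and 33.0% of all 27305 genes with an entry, and a GC box (GGGCGG) before 5 and 42.3%. The 6 include both CWC27 and SREK1IP1, whose shared stretch holds 1 match that is counted for each. A match to the NRF1 consensus stood before UQCRFS1 alone (5.53% of all), and a TATA box (TATAAA) before PHACTR2 alone (11.1%). No match was found before the 11 genes for the E-box (CACGTG, 6.49% of all), the ETS site (CCGGAAG, 8.82%), the CRE (TGACGTCA, 1.77%), the YY1 site (ATGGCGGC, 1.34%) or the element bound by ATF4 with C/EBP proteins (TGATGNAA, 3.19%). These matches describe the letters of a window and are not binding sites.

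Neighbours of the changed genes were examined next. Within 500 kb of the starts of the 14 genes, by the GENCODE annotation, lay 46 tested genes, of which 2 changed (4.35%, against 0.0939% of all genes), CWC27 and SREK1IP1, which are themselves among the 14. An unadjusted p under 0.05 was found for 8 of the 46 (17.4%, against 5.90% of all genes), or 6 of the 44 that are not among the 14. MAP3K13, which starts 0.951 kb from EHHADH on the other strand, was at 132, 126 and 119 CPM with DMSO and at 116, 121 and 119 with doxycycline, so that its groups overlapped (log2 fold change −0.085, edgeR adjusted p 0.672). The ribosomal protein gene RPS12, which starts 1.23 kb from the start of SLC18B1 on the other strand, had a log2 fold change of 0.073 (edgeR adjusted p 0.673).

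TG (chr8:132866958-133134903, plus strand), which encodes thyroglobulin, the precursor of thyroid hormone, was the second gene that rose. It was at 5.89, 7.88 and 7.26 CPM with DMSO and at 13.8, 12.5 and 12.5 CPM with doxycycline (log2 fold change 0.89, SE 0.112, edgeR adjusted p 0.00198). SLA, an adaptor protein gene that lies within the TG locus on the other strand, was at 1.25, 1.05 and 0.922 CPM against 1.65, 1.81 and 1.88. The doxycycline libraries again lay above all DMSO libraries, by 0.72 on the log2 scale (SE 0.15), with an unadjusted p of 2.2e-04 and an edgeR adjusted p of 0.149. SLA was named after its values were seen. Overlap of TG exons with exons of the other strand is 0.862%.

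SOSTDC1, an antagonist of BMP signalling, was at 2.83, 3.40 and 3.23 CPM with DMSO and at 1.8, 1.79 and 1.43 CPM with doxycycline (log2 fold change −0.91, SE 0.165, edgeR adjusted p 0.0526), just outside the threshold. ANKRD31 had −0.70 on the log2 scale (SE 0.141, edgeR adjusted p 0.185). Among genes of at least 1 CPM with separate groups and an unadjusted p under 0.05, the highest log2 fold changes after TG and SYNM were those of TNNT1 (0.79), STK11IP (0.77) and VGF (0.75), each with an edgeR adjusted p of 0.672. TNNT1 encodes a troponin of slow muscle and STK11IP a partner of the kinase STK11. VGF, a secreted granin, was at 0.776, 1.19 and 0.98 CPM against 1.65, 1.84 and 1.43, so that the groups were separate at a low level. Groups of all genes were separate with doxycycline above DMSO for 6.97% of genes and below it for 7.17%.

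The 14 genes were then followed in the hairpin lines, which share no library with the EV comparison. RUNX1T1, the stated target, had 44.1, 39.3 and 42.4 CPM with DMSO and 36.5, 37.8 and 38.6 with doxycycline in EV (log2 fold change −0.16, SE 0.0549, edgeR adjusted p 0.672). Its transcript did not pass the test in the lines labelled sh4 (−0.11, adjusted p 0.117) and shAMB (0.056, 0.378) either, nor in the xenografts labelled RUNX1T1 KO (−0.23, 0.229), so that its level does not check these labels. The shAMB effect lay above that in EV by 0.21 (95% interval 0.047 to 0.38, edgeR adjusted p 0.0353). At the protein level the paper reported less RUNX1T1 in KELLY cells once hairpins were induced. In the sh4 and shAMB lines 40.9% (sh4) and 66.0% (shAMB) of the genes tested changed, and the effect differed from that in EV for 32.6% and 45.5%. Of the 14 genes, 13 had the same sign in sh4 and 12 in shAMB, against 37.0% and 62.2% of all genes tested. In both lines 8 changed in the EV direction, against 1098 of all 14905 genes: SYNM, SLITRK5, CWC27, SLC18B1, DNAJC6, AGPAT4, CDH6 and UQCRFS1. A difference from the EV effect was not shown in either line for CWC27, DNAJC6, CDH6 and UQCRFS1. DNAJC6 had log2 fold changes of −0.50 in EV, −0.52 in sh4 and −0.54 in shAMB. The 95% interval of its difference from EV ran from −0.18 to 0.13 in sh4 and from −0.20 to 0.11 in shAMB. CWC27 had −0.74, −0.63 and −0.55, with intervals of the difference from −0.10 to 0.32 in sh4 and from −0.024 to 0.40 in shAMB. UQCRFS1 had −0.40, −0.57 and −0.52, with intervals from −0.37 to 0.028 and from −0.32 to 0.075. CDH6 had −0.93, −1.10 and −1.36, with wider intervals from −0.59 to 0.26 and from −0.85 to 0.0081.

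Other genes did not keep the size seen with doxycycline alone. SYNM rose by 0.70 on the log2 scale in sh4, with no difference from EV shown (adjusted p 0.214), and by 1.96 in shAMB, where it was at 20.9 to 22.1 CPM with DMSO and 78.6 to 88.9 with doxycycline and the effect exceeded that of EV by 1.11 (edgeR adjusted p 9.6e-08). The log2 fold changes of SLITRK5, SLC18B1, EDNRA and EHHADH were nearer 0 than in EV in sh4 (−0.21, −0.22, −0.03 and −0.23) and farther from it in shAMB (−1.81, −1.35, −1.40 and −1.46), and all 8 differences from EV passed the edgeR threshold. SREK1IP1 had a log2 fold change of −0.021 in sh4 (difference 0.35, edgeR adjusted p 0.00615) and −0.15 in shAMB (difference 0.22, adjusted p 0.0508). Its neighbour CWC27 fell in both lines, so that the pair moved together in EV but not in sh4. PHACTR2 fell in EV, rose by 1.19 in sh4 and had 0.20 in shAMB, and both differences passed (1.97 and 0.99). SYNPO2 fell further in sh4 (−1.16) and rose in shAMB (0.63). TG rose by 1.34 on the log2 scale in sh4 and had 0.16 in shAMB (edgeR adjusted p 0.23). AGPAT4 fell in both lines (−0.14 and −0.21), by less than in EV in sh4.

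**Figure D3:**
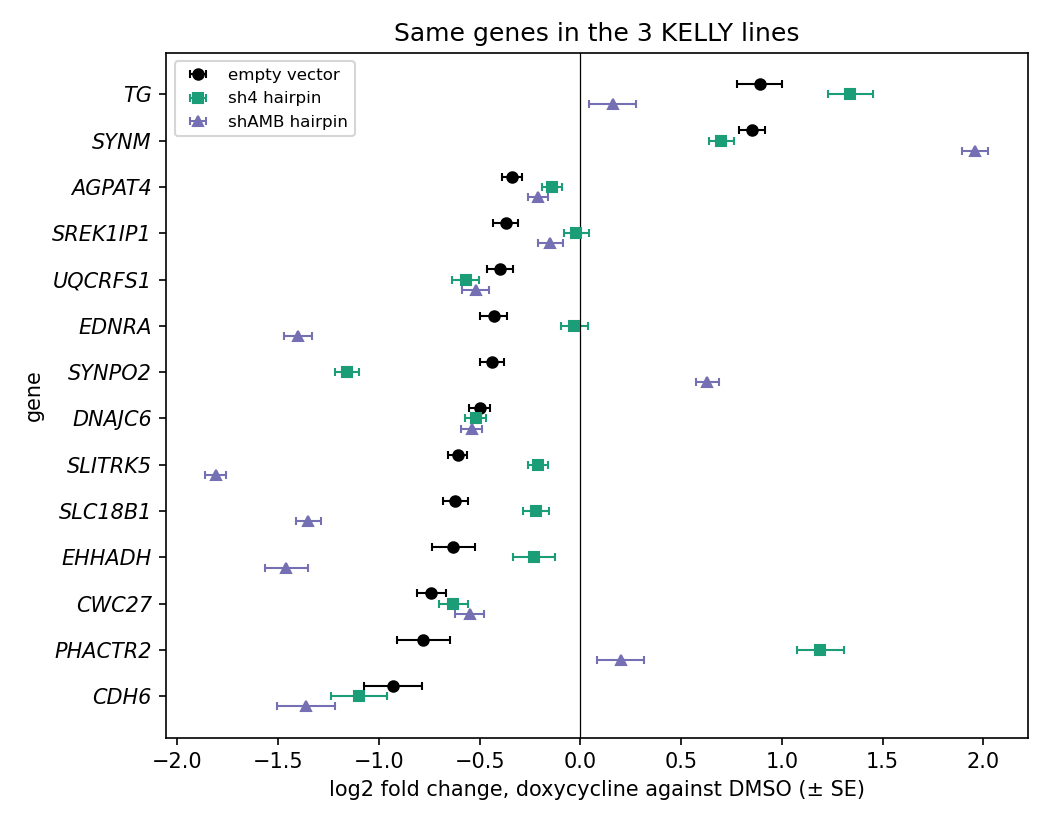
Log2 fold change of doxycycline against DMSO (horizontal axis, bars are the SE of the fit) for the 14 genes in the EV, sh4 and shAMB lines, from 3 libraries a group. The 3 symbols lie close together for DNAJC6, CWC27 and UQCRFS1, and far apart for SLITRK5, EDNRA, PHACTR2 and SYNPO2.

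In the xenografts the doxycycline food and the RUNX1T1 KO label fall on the same tumours and cannot be told apart. There 12 of the 14 genes had the sign seen in EV and 10 changed in that direction. Of 15960 genes tested there 41.1% changed, counted in either direction. The share of all genes with the EV sign in the xenografts was not computed, so whether these counts exceed it was not tested. Log2 fold changes were −0.34 for DNAJC6 (edgeR adjusted p 0.0169), −0.33 for CWC27 (0.0314), −0.43 for UQCRFS1 (0.00659), −1.10 for CDH6 (4.6e-04) and 1.25 for SYNM (3.5e-04). TG (−0.048) and SREK1IP1 (0.012) had values near 0.

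Among genes with weaker evidence the shares with the same sign were nearer those of all genes. Of the 879 genes with an unadjusted p under 0.05 in EV, 41.0% had the same sign in sh4 and 58.8% in shAMB, against 37.0% and 62.2% of all genes tested. Of the 38 genes with an unadjusted p under 0.001 these shares were 71.1% and 68.4%.

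The mitochondrial question was addressed through nuclear genes, since transcripts of the mitochondrial genome were not analysed here. Among 82 mitochondrial ribosomal proteins 0 changed in edgeR, 4 had an unadjusted p under 0.05, all higher (against 3.23% of all genes), and the median log2 fold change was 0.035. The smallest p was that of MRPL16, at 41.2, 46.7 and 47.1 CPM with DMSO and 49.7, 51.5 and 47.4 with doxycycline (log2 fold change 0.14, edgeR adjusted p 0.672). Of 21 translation factors 0 changed and 2 had an unadjusted p under 0.05, both lower (against 2.66% of all genes). They were GUF1 (−0.17), the mitochondrial elongation factor 4, and MTRF1L (−0.20), a release factor. TUFM, the mitochondrial elongation factor Tu, had 0.27 (95% interval −0.12 to 0.66). Of 20 mitochondrial transfer RNA synthetases 0 changed and 3 had an unadjusted p under 0.05, all higher (against 3.23% of all genes): MARS2 (0.14), LARS2 (0.14) and CARS2 (0.17). Of 32 genes for mitochondrial DNA maintenance and transcription 0 changed and 2 had an unadjusted p under 0.05, TFB1M (−0.15) and ELAC2 (0.19). Over all genes these shares were 2.66% lower and 3.23% higher. TFAM, the packaging factor of mitochondrial DNA, was at 214, 202 and 189 CPM against 185, 182 and 192 (−0.11, 95% interval −0.26 to 0.032), and the mitochondrial RNA polymerase POLRMT had 0.39 (−0.35 to 1.13). Without the first DMSO replicate TUFM had 0.14 and POLRMT 0.16, and without the third 0.43 and 0.72.

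Among the nuclear subunits of the respiratory chain, UQCRFS1 was the only gene that passed the test. Complex I subunits had a median log2 fold change of 0.071 over 37 genes, with 0 changed, and 0.017 without the first DMSO replicate. Complexes II to IV had a median of 0.017 over 25 genes, and SDHA, the flavoprotein of complex II, had 0.23 (unadjusted p 0.0317). ATP synthase subunits (median 0.027, 16 genes), assembly factors (0.016, 44 genes) and tricarboxylic acid cycle enzymes (0.014, 23 genes) held 0 changed genes each. Among assembly factors LYRM7, which stabilises the Rieske protein before its insertion into complex III, was at 84.9, 86.1 and 78.7 CPM with DMSO and at 74.6, 73.4 and 75.8 with doxycycline (log2 fold change −0.16, unadjusted p 0.017, edgeR adjusted p 0.672). Its doxycycline libraries were all below the DMSO libraries, as with UQCRFS1. The same held for 5 of the 44 assembly factors (11.4%, against 7.17% of all genes), LYRM7 among them, with 0 separate above. NDUFAF6 had a smaller unadjusted p (0.0145 in edgeR, log2 fold change −0.20), whereas UQCC3 had a log2 fold change of 0.42 with overlapping groups. A joint movement of LYRM7 and UQCRFS1 was not tested. Mitochondrial chaperones and proteases had a median of 0.076 over 25 genes with 0 changed. HSPD1 (−0.052, 95% interval −0.21 to 0.11) and HSPE1 (−0.071, −0.24 to 0.094), the matrix chaperonins, and the proteases LONP1 (0.29, −0.29 to 0.87) and CLPP (0.23, −0.35 to 0.82) had intervals that include 0. LONP1 had 0.11 and CLPP 0.061 without the first DMSO replicate, and 0.53 and 0.44 without the third.

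**Figure D4:**
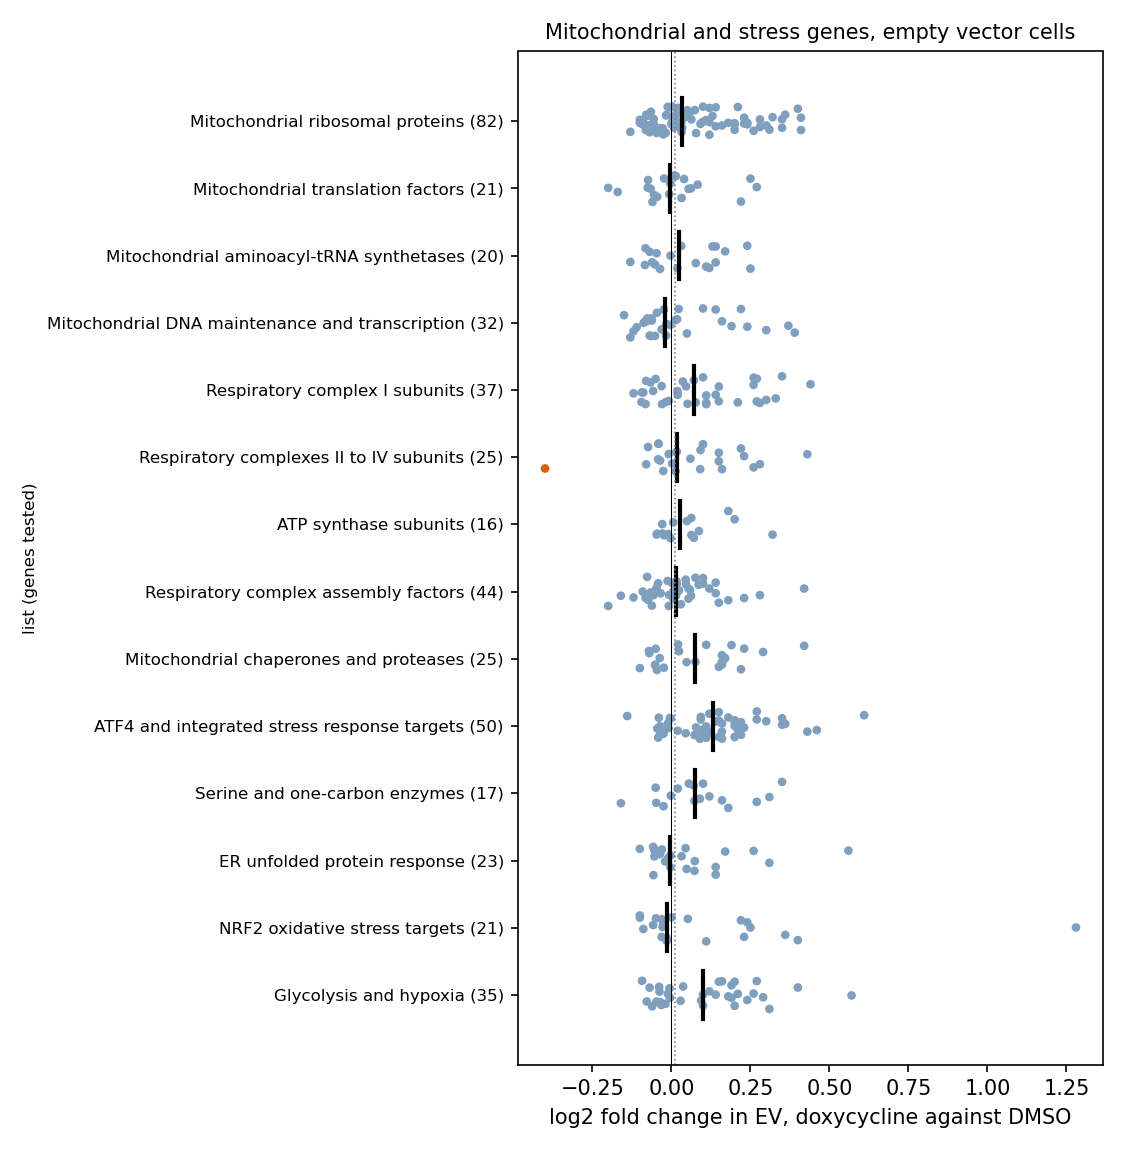
Log2 fold change in EV (horizontal axis) of every tested member of 14 lists (vertical axis, number of genes tested in parentheses), 1 point per gene, with the list median as a black bar and the median of all genes as a dotted line. UQCRFS1, in orange, is the only point that passes the adjusted threshold, and the medians run from −0.02 to 0.13.

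Target genes of ATF4 had the highest median of the 14 mitochondrial and stress lists plotted, without a gene that passed. Of 50 tested, 0 changed in edgeR, 10 had an unadjusted p under 0.05, all higher (against 3.23% of all genes), and 7 were separate with doxycycline above DMSO and 0 below (6.97% and 7.17% of all genes). The median log2 fold change was 0.13. CHAC1, a glutathione-degrading enzyme that responds to ATF4, was at 1.23, 1.27 and 1.79 CPM with DMSO and at 2.20, 2.39 and 1.91 with doxycycline (log2 fold change 0.61, SE 0.25, edgeR adjusted p 0.672). ATF4 itself was at 530, 554 and 582 CPM against 600, 602 and 594 (0.11, SE 0.0458, edgeR adjusted p 0.672), without overlap. The synthetase genes AARS (0.18) and SARS (0.12), the folate enzyme MTHFD1L (0.10) and the pseudokinase TRIB3 (0.22) had unadjusted p under 0.05. Other standard targets had intervals that include 0: DDIT3 0.093 (−0.075 to 0.26), ASNS 0.093 (−0.045 to 0.23), PSAT1 0.02 (−0.10 to 0.14), MTHFD2 −0.025 (−0.17 to 0.12) and SESN2 0.20 (−0.17 to 0.56), the last with 0.083 without the first DMSO replicate and 0.37 without the third. GDF15, a secreted marker of mitochondrial stress, had under 1 CPM in every library and a wide interval (−0.86 to 1.31). In the 250 bases before the start, the ATF4 element was present in 6 of the 42 listed genes with an entry (14.3%, against 3.19% of all).

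Serine and one-carbon enzymes had a median of 0.073 over 17 genes, with 3 at an unadjusted p under 0.05 and higher (against 3.23% of all genes). PHGDH, the first enzyme of serine synthesis, was at 111, 147 and 171 CPM with DMSO and at 189, 193 and 163 with doxycycline (0.35, SE 0.175, edgeR adjusted p 0.672), and its DMSO library 3 lay above doxycycline library 3. Without the first DMSO replicate it had 0.19. SHMT2 had 0.27 (95% interval −0.082 to 0.61), and 0.15 without the first and 0.41 without the third DMSO replicate. Glycolysis and hypoxia genes had a median of 0.10 over 35 genes with 0 changed. An unadjusted p under 0.05 was found for 4, all higher (against 3.23% of all genes), among them ALDOC (0.40) and HK2 (0.10). The unfolded protein response of the endoplasmic reticulum (median −0.0032, 23 genes), the cytosolic heat shock response (0.0069, 16 genes), NRF2 targets (−0.015, 21 genes) and regulators of the integrated stress response (−0.015, 13 genes) held 0 changed genes. The highest value among NRF2 targets was that of OSGIN1 (1.28, SE 0.506, edgeR adjusted p 0.672), at 0.183, 0.0809 and 0.404 CPM with DMSO and 0.676, 0.578 and 0.337 with doxycycline, where the groups overlapped. Metallothioneins and metal transport genes (median −0.022, 19 genes) likewise had 0. MT1X was at 0.205 to 0.317 CPM with DMSO and 0.421 to 0.453 with doxycycline, and MT2A at 0.351 to 0.721 and 0.337 to 0.601. Matrix metalloproteinases, which tetracyclines are known to inhibit as enzymes, and their inhibitors had a median of 0.17 over 12 genes (0.031 without the first DMSO replicate) and 0 changed. TIMP3 was at 5.52, 5.64 and 4.79 CPM against 7.41, 6.56 and 6.74 (0.38, SE 0.0841, edgeR adjusted p 0.234).

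Cytosolic ribosomal proteins leaned to the side of higher levels, without a gene that passed. Of 79 genes, 0 changed in edgeR and 73 had a log2 fold change above 0 (against 7810 of 14905 genes tested). An unadjusted p under 0.05 was found for 15, all higher (against 3.23% of all genes). Separate above DMSO were 22 (27.8%, against 6.97% of all genes), with 0 below (against 7.17%). The median was 0.15, and RPL4 (1823, 1981 and 2018 CPM with DMSO against 2198, 2177 and 2152 with doxycycline, log2 fold change 0.16, SE 0.0465, edgeR adjusted p 0.592) had the smallest p. Many of these genes have processed pseudogenes with which reads could be shared. G2 and mitosis genes leaned the other way, with 40 of 51 below 0 (against 7092 of 14905 genes tested) and a median of −0.10. Of the 51, 12 were separate below DMSO (23.5%, against 7.17% of all genes) and 0 above. NEK2 was at 156, 143 and 137 CPM against 128, 125 and 128 (−0.19, edgeR adjusted p 0.672). DNA replication genes had a median of 0.047 over 42. Of 25 p53 targets, 7 were separate below DMSO (28%, against 7.17% of all genes) and 0 above. PLK2 (−0.27, SE 0.0619, edgeR adjusted p 0.236), FAS (−0.44), GADD45A (−0.20) and ZMAT3 (−0.17) had an unadjusted p under 0.05 (against 2.66% of all genes lower).

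The medians of cytosolic ribosomal proteins, ATF4 targets and G2 and mitosis genes differed between the DMSO libraries. They moved in steps from the first replicate to the third, which lay nearest the doxycycline libraries. The first DMSO replicate had the lowest median of cytosolic ribosomal proteins (−0.14 relative to the DMSO mean, against 0.03 and 0.081 in the other DMSO libraries and 0.17, 0.18 and 0.11 with doxycycline), and the lowest of ATF4 targets (−0.07, against −0.0044 and 0.069, and 0.14, 0.15 and 0.08). It also had the lowest level of GC-rich genes. The quintile of genes richest in G and C minus the poorest quintile gave −0.49, −0.17 and 0.21 log2 units in the DMSO libraries and 0.21, 0.25 and 0.00052 in the doxycycline libraries. Without the first DMSO replicate the medians were 0.095 for ribosomal proteins, 0.086 for ATF4 targets and −0.056 for G2 and mitosis, with 1, 2 and 0 genes at an unadjusted p under 0.05. Among the 14905 genes 180 were then higher and 189 lower at that p. When the third DMSO replicate was left out instead, 2366 genes had an edgeR unadjusted p under 0.05, against 879 in the main fit. With GC content and length trends removed the medians were 0.078, 0.036 and −0.035, with 19, 15 and 15 genes, the last 15 lower. Among the 14905 genes 650 were higher and 784 lower in that setting. The complex I median was then 0.0036, that of metalloproteinases 0.037, and that of glycolysis and hypoxia genes 0.034. The part of GC content in these medians was not tested beyond these values. In the hairpin lines the ribosomal protein medians were −0.49 and −0.25, of the opposite sign, and those of ATF4 targets 0.15 and 0.063.

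**Figure D5:**
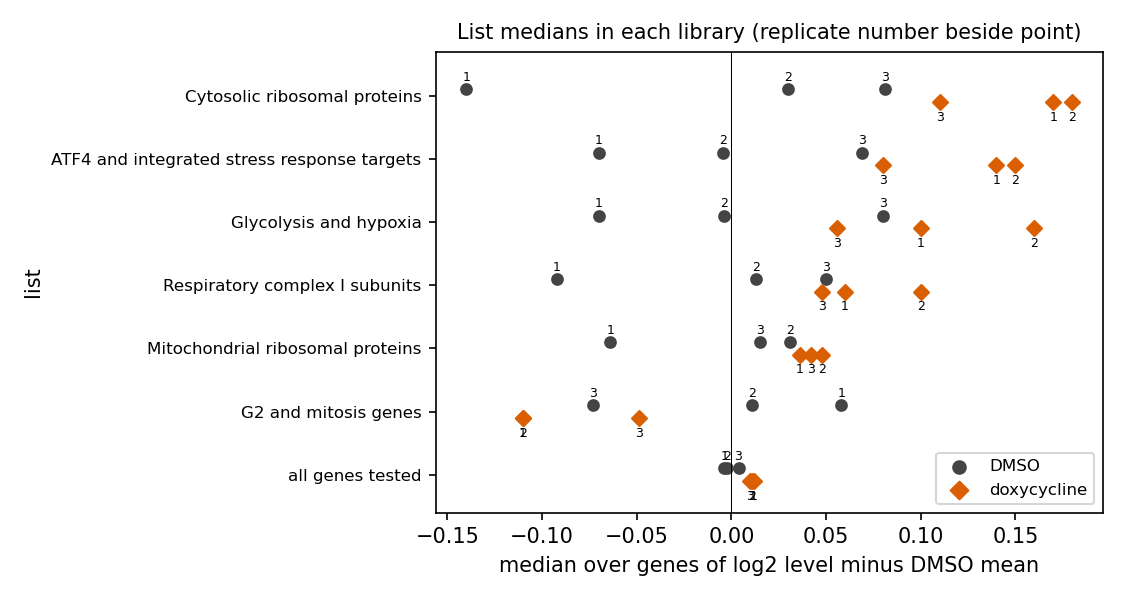
Median over the genes of a list of the log2 level minus the mean of the DMSO libraries (horizontal axis), for 6 lists and all genes (vertical axis), in each of the 6 EV libraries, with the replicate number beside each point. The first DMSO replicate lies farthest left for cytosolic ribosomal proteins (−0.14) and farthest right for G2 and mitosis genes (0.058), and the groups overlap for 3 of the 6 lists.

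No gene of the neuroblastoma identity lists passed the test. MYCN was at 2146, 2138 and 2298 CPM with DMSO and at 2310, 2359 and 2234 with doxycycline (0.069, 95% interval −0.10 to 0.24), and its partner MAX had 0.079 (−0.037 to 0.19). Adrenergic regulators had a median of 0.03 over 18 genes, with GATA3 (0.16) and SOX11 (−0.13) at an unadjusted p under 0.05 (against 3.23% of all genes higher and 2.66% lower). Of 15 catecholamine and granin genes 0 changed and 6 had an unadjusted p under 0.05, 2 higher and 4 lower (against 3.23% and 2.66% of all genes), among them VGF (0.75), CHGB (0.077), SCG2 (−0.22) and NPY (−0.29). The doxycycline libraries were separate below DMSO for 6 of the 15 (40%, against 7.17% of all genes) and above for 2. Of 25 neuronal differentiation genes 0 changed, and the median was 0.071. NTRK2, the receptor of BDNF, was at 0.365, 0.216 and 0.144 CPM with DMSO and at 0.876, 0.755 and 0.505 with doxycycline (1.52, SE 0.309, edgeR adjusted p 0.122), and NEFM and MAP2 had −0.17 and −0.16. Interferon-stimulated genes (median 0.055, 21 genes), NF-kappaB and immediate early genes (0.12, 25 genes), cholesterol synthesis (0.082, 23 genes), BCL2 family genes (0.086, 14 genes) and mitochondrial dynamics genes (0.011, 22 genes) held 0 changed genes. Of 12 drug efflux and detoxification genes 0 changed, and CYP1B1 (−0.28) and ABCB1 (−0.19), the multidrug transporter, had an unadjusted p under 0.05 (against 2.66% of all genes lower). With GC content and length trends removed, the medians of adrenergic regulators (−0.081), NF-kappaB genes (−0.064), BCL2 family genes (−0.051), interferon-stimulated genes (−0.015) and neuronal differentiation genes (−0.012) were negative.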

How the data were processed

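Per the labels, KELLY RNA went through a kit for stranded libraries from total RNA, although the molecule is given as polyA RNA, and was read in pairs. Per the labels the authors' processing used STAR, SAMtools and RSEM with hg38. The authors deposited RSEM expected counts (estimated counts, 91.8% of values whole) for 26485 genes, with a gene length in bases, and TPM, their length-scaled abundance. Transcripts of the mitochondrial genome were not analysed here. TPM was used for marker levels and an alternative.

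Expected counts were rounded and analysed in R 4.3.3 with edgeR 4.0.16. Genes were kept by filterByExpr, libraries scaled by TMM (factors 0.974 to 1.07), and all 18 culture libraries entered 1 quasi-likelihood fit with a mean per group (12 residual degrees of freedom, median biological coefficient of variation 0.115). Two-sided F tests compared doxycycline with DMSO in each line, and the sh4 and shAMB effects with that in EV, with Benjamini-Hochberg adjustment over 14905 genes. Xenografts were fitted alone. All p-values are from these fits. SE and 95% intervals come from the F statistic. The script was tested on simulated data. Between replicates, chi-square divided by its degrees of freedom was 10.4 to 35.4 (DMSO) and 1.82 to 5.69 (doxycycline), above sampling noise, so each library counted as 1 replicate. The labels name no molecular identifiers.

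Members and lists were chosen with earlier results of these data known. Named were the 14 changed genes, the 5 highest and 5 lowest log2 fold changes among genes of at least 1 CPM with separate groups and an unadjusted p under 0.05, up to 4 members of each list by p, and a set of stress and neuroblastoma genes. Lists are described by counts and medians, with no set test. Alternatives were RLE factors, other filters, DESeq2 1.42.0, limma 3.58.1 on log2(TPM + 1), removal of GC content and length trends (14406 genes with a GC value), small RNA genes left out, a replicate block, the EV libraries alone and each library left out. Motifs were searched in RefSeq windows (GRCh38.p14), and gene positions are from GENCODE (hg38).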

Additional observations from a re-analysis of the deposited data

Results flagged for a closer look

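For 10 of the 14 genes changed in the EV line, the effect of doxycycline in a hairpin line differed from that in EV by the edgeR test of the difference itself (adjusted p under 0.05). This was so for 71.4% of these genes and 60.7% of all genes tested, so the count by itself says nothing particular of the 14. In the sh4 line the difference from EV was 0.40 for SLITRK5 (adjusted p 4.1e-04), 0.41 for SLC18B1 (0.00258), 0.45 for TG (0.0393), −0.72 for SYNPO2 (1.0e-05), 0.19 for AGPAT4 (0.0458), 0.40 for EDNRA (0.0044), 0.41 for EHHADH (0.0445), 0.35 for SREK1IP1 (0.00615) and 1.97 for PHACTR2 (6.3e-07), all on the log2 scale. In the shAMB line it was 1.11 for SYNM (9.6e-08), −1.21 for SLITRK5 (2.5e-09), −0.72 for SLC18B1 (8.2e-06), −0.73 for TG (0.00164), 1.07 for SYNPO2 (6.2e-08), −0.97 for EDNRA (9.6e-07), −0.82 for EHHADH (3.1e-04) and 0.99 for PHACTR2 (2.8e-04). Both sets of differences use the same EV libraries, by which the 14 genes were also chosen. Choice by a large EV effect tends to overstate that effect, which favours differences that place the hairpin effect nearer 0 than in EV. These tests are therefore not independent of the choice. TG rose in EV and sh4 but had 0.16 in shAMB, PHACTR2 fell in EV and rose in sh4, and SYNPO2 fell in EV and sh4 and rose in shAMB. The groups of 3 libraries are too small for a test of single outlying libraries.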

How the results depend on the processing

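The EV comparison rests on 3 libraries a group, and many of its calls are near the threshold. The 14 changed genes became 58 (19 higher and 39 lower) with GC content and gene length trends removed, 6 with the EV libraries fitted alone and 2 with the replicate block. Without any one EV library the count ran from 7 (first DMSO replicate) to 14. It stayed between 13 and 20 with RLE factors, other filters, DESeq2, limma on TPM, small RNA genes left out or an adjusted p under 0.10. SYNM and SLITRK5 passed under all 15 alternatives of single genes, 7 of 14 passed whichever EV library was left out (SYNM, SLITRK5, CWC27, SLC18B1, DNAJC6, TG and SYNPO2), and UQCRFS1 passed in none of these 6 fits. No log2 fold change of the 14 turned sign. Of the 29 other named genes followed, 28 passed under no alternative, and SOSTDC1 passed under 5.

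The count for sh4 against EV was 2713 with the replicate block and ran from 3753 to 7557 when 1 library was left out, the highest without the third doxycycline replicate of sh4. The count for shAMB against EV ran from 6081 to 6754 in such fits. Replicate numbers did not pair the EV libraries: deviations of same-numbered libraries correlated at −0.174, −0.171 and −0.408. The planned test of the share of mitochondrial genome counts was not run, and these transcripts were not analysed here.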
